A study of Mus musculus with 18 samples.

Results

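Detected olfactory receptor genes were followed through thymic epithelial cells of mice with and without Aire. They were chosen by symbol and by level. A gene was taken if its symbol was Olfr followed by a digit and if it reached at least 0.1 RPKM (the unit the authors deposited, in which a level is scaled to the length of the gene model and to the size of the library) in at least 3 of the 18 libraries. Of 1108 such genes in the authors' tables, 97 passed (8.75%), whereas 19451 of all 23063 genes passed the same threshold (84.3%). Of the 1108, 354 were listed at 0 in every library. The levels that chose the members are the levels described below, so the number of members and their presence in a group are descriptions.

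RNA came from sorted cells, and the mice were 6 to 8 weeks old. The 6 groups were KO mTEChi, WT mTEChi, KO mTEClo, WT mTEClo, KO cTEC and WT cTEC, with 3 libraries each. KO is Aire KO, WT is wild type, mTEC are medullary and cTEC cortical thymic epithelial cells. All samples, WT included, carry the strain label B6.129S2-Airetm1.1Doi/J. The labels do not say which protein the lo and hi gates measure, nor whether the libraries of a group came from separate mice, so p-values measure only the spread between these libraries.

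Olfactory receptors are G protein-coupled receptors of olfactory sensory neurons, and their genes form the largest family of the mouse genome, arranged in clusters on many chromosomes. Their coding region usually lies in a single exon, and each mature neuron transcribes a single receptor allele. In the thymus, medullary epithelial cells transcribe many tissue-restricted genes, many of them through the regulator Aire, and the products are shown to developing T cells.

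Aire itself, counted over its whole gene, was at 1126, 1001 and 1091 RPKM in KO mTEChi and at 658, 681 and 693 RPKM in WT mTEChi. A value over the whole gene does not check a deletion of a part of it. KO cTEC stood at 95.6, 35.9 and 27 RPKM and WT cTEC at 2.09, 3.95 and 7.39 RPKM. Summed levels of 9 cortical markers were 1243 to 2165 RPKM in KO cTEC and 1427 to 2129 RPKM in WT cTEC, and lay between 610 and 1041 RPKM in every mTEC library. The 11 medullary markers in the tables summed to 1492 to 1561 RPKM in KO cTEC, above the 1101 to 1332 RPKM of WT cTEC. Depth was 4.54 to 18.1 Gb of aligned bases on genes per library, and both extremes were WT mTEClo libraries. In a gene model of 1 kb, 0.1 RPKM stood for 572 to 2229 aligned bases.

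WT mTEChi held by far the most olfactory receptor genes. At 0.1 RPKM or more, 42, 37 and 36 of the 1108 genes were found in the KO mTEChi libraries and 144, 140 and 158 in the WT mTEChi libraries. The 2 groups did not overlap, and their means were 38.3 ± 3.21 and 147 ± 9.45 (SD, n = 3; exact permutation p = 0.1, two-sided, the smallest that 3 against 3 libraries can give). In these bulk samples fewer cells of a type and less RNA per cell cannot be told apart. Over all genes the same threshold gave 16428 to 16512 genes in KO mTEChi and 19428 to 19558 in WT mTEChi.

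Outside mTEChi the direction was the opposite. KO mTEClo libraries held 33, 29 and 26 olfactory receptor genes, against 17, 20 and 13 in WT mTEClo. KO cTEC libraries held 38, 29 and 26, against 12, 24 and 16 in WT cTEC. KO libraries lay above WT libraries without overlap in both populations (exact permutation p = 0.1 in each, two-sided). The same threshold over all genes gave 16290 to 16492 genes in KO mTEClo and 16299 to 16424 in WT mTEClo, with overlap. In cTEC it gave 15913 to 16313 genes in KO and 15417 to 15847 in WT, also without overlap and with KO above WT.

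**Figure D1:**
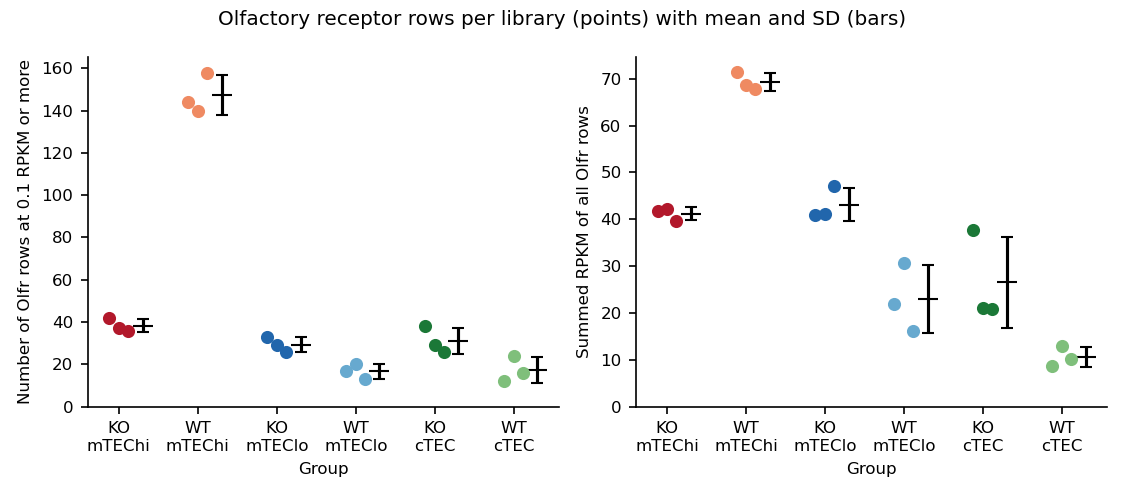
Number of olfactory receptor genes at 0.1 RPKM or more (left) and their summed RPKM (right) by group; points are libraries, bars the mean and SD of 3 libraries. KO mTEChi libraries hold 36 to 42 genes and WT mTEChi libraries 140 to 158, and WT mTEChi stands above all other groups in both panels.

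The summed level set the groups in another order than the number of genes did. All olfactory receptor genes together came to 41.8, 42.1 and 39.6 RPKM in KO mTEChi and to 71.5, 68.7 and 67.9 RPKM in WT mTEChi. KO mTEClo reached 41.0, 41.1 and 47.2 RPKM, against 22.0, 30.6 and 16.2 RPKM in WT mTEClo, and KO cTEC 37.8, 21 and 20.8 RPKM, against 8.71, 13.0 and 10.1 RPKM in WT cTEC. KO mTEChi, with 41.2 ± 1.36 RPKM, did not differ from KO mTEClo, with 43.1 ± 3.59 RPKM, beyond the spread (SD, n = 3; exact permutation p = 0.6, two-sided).

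Outside WT mTEChi the sum rested on few genes. The 10 highest genes made up 74.9 to 78.9% of it in KO mTEChi and 25.9 to 31.7% in WT mTEChi. In mTEClo the figure was 85.9 to 90.7% in KO and 83.7 to 89.6% in WT libraries. Olfr1136 alone gave 30.4 to 36.8% of the KO mTEChi sum, and Olfr461 alone gave 52.6 to 54.9% of the KO mTEClo sum and 48.7 to 59.8% of the WT mTEClo sum. The highest gene of WT mTEChi, again Olfr461, gave 4.49 to 7.3%.

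In every group the olfactory receptor genes differed from library to library. Of 242 genes at 0.1 RPKM or more in any WT mTEChi library, 71 (29.3%) reached it in all 3, whereas of the 49 in KO mTEChi 29 (59.2%) did. The share was 44.2% in KO mTEClo, 40% in WT mTEClo, 23.6% in KO cTEC and 33.3% in WT cTEC. Over all genes the shares were 93.1% in KO mTEChi, 92.6% in WT mTEChi and 87.7 to 91.5% in the other groups. The rule of 3 libraries therefore took the recurrent part of what WT mTEChi held: members made up 64.2 to 69.2% of the summed olfactory receptor RPKM of WT mTEChi and 92.4 to 98.3% elsewhere.

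Levels were low. The highest group mean of a member had a median of 0.344 RPKM over the 97, and 15 members reached a group mean of 1 RPKM, 8 reached 2 RPKM and 2, Olfr461 and Olfr1136, reached 5 RPKM. The group with the highest mean was WT mTEChi for 63 members, KO mTEChi for 16, KO mTEClo for 11, KO cTEC for 5 and WT cTEC for 2. For 34 members the 3 WT mTEChi libraries were the only ones at 0.1 RPKM or more. The rule itself set these 34 apart, so their values are given below without a test. At the edge of the threshold, the third-highest library was at 0.1013 RPKM for Olfr90 and 0.1014 RPKM for Olfr1417, which passed, and at 0.0994 RPKM for Olfr536 and 0.0989 RPKM for Olfr922, which did not.

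The members were then compared between KO and WT mTEChi. With limma on log2(RPKM + 0.1), fitted over all 19451 tested genes, 9 members were called higher in KO mTEChi than in WT mTEChi and 59 lower, at an adjusted p under 0.05. Of all tested genes 9.57% were called higher and 52.8% lower, so the members' shares of 9.28% and 60.8% lay near that background. The median log2 difference was −1.10 over the members and −0.39 over all tested genes. Outside the 34 members that the rule set apart, 9 of 63 were called higher, 25 lower and 29 not.

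The calls were repeated under 2 other scalings, each of which moved the KO minus WT estimate of all 97 members upward. When all libraries were forced to 1 distribution by quantile normalization, the median of all tested genes moved to 0.08 and that of the members to 0.20. With this scaling 31.2% of all tested genes were called higher and 24.7% lower. Of the 59 members called lower, 17 were then still called lower, 5 were called higher and 16 had an estimate above 0. The 9 members called higher were called higher here too. Libraries were also centred on the median of genes at 1 RPKM or more in all of them. The medians were then −0.90 over members and −0.20 over all tested genes. With this centring 11 members were called higher, against 17% of all tested genes, and 48 lower, against 40.6%.

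**Figure D2:**
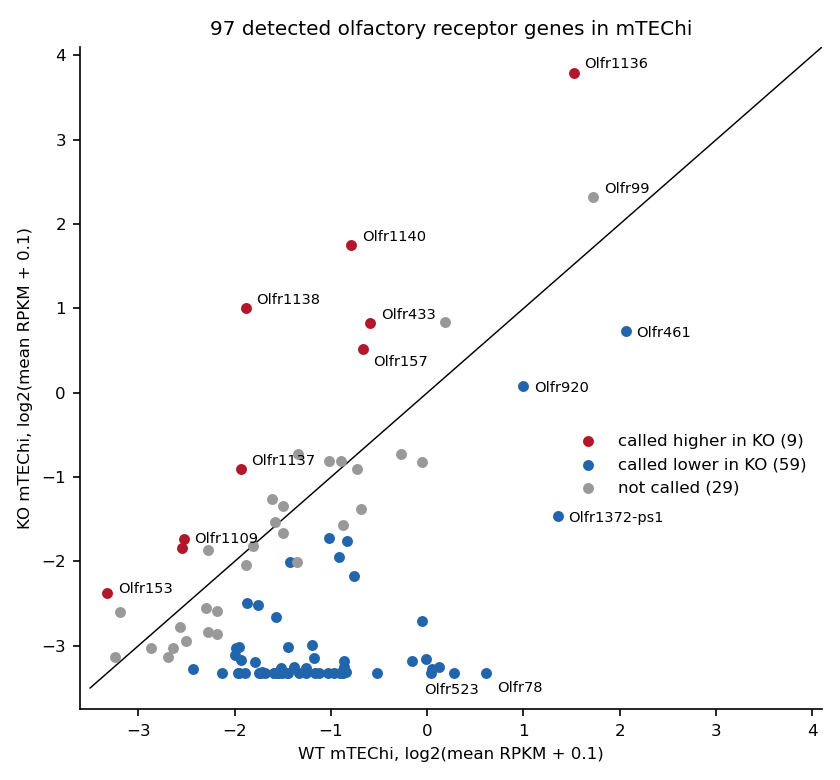
Mean level of each of the 97 members in KO mTEChi (vertical) and WT mTEChi (horizontal), as log2(mean RPKM + 0.1), with the line of equal levels. The 9 members called higher lie above the line, led by Olfr1136, and most of the 59 called lower lie along the floor at 0 RPKM in KO.

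The 9 members called higher lay in 3 clusters on 3 chromosomes, with log2 differences of 0.70 to 2.93. The 3 largest differences were those of Olfr1138, Olfr1140 and Olfr1136, which lie with Olfr1137 in a block on chromosome 2. Olfr1136, the highest olfactory receptor gene of KO mTEChi, was at 13.9, 15.5 and 12.1 RPKM in KO mTEChi and at 2.45, 3.31 and 2.54 RPKM in WT mTEChi. The libraries of the 2 groups were far apart, and the log2 difference was 2.28 (SE 0.37, limma adjusted p = 5.1e-05). Olfr1138 was at 1.85, 1.89 and 1.96 RPKM in KO mTEChi and at 0.0965, 0.150 and 0.267 RPKM in WT mTEChi. Again every KO library exceeded every WT library, by 2.93 on the log2 scale (SE 0.44, adjusted p = 2.8e-05). Olfr1140 was at 3.49, 3.73 and 2.61 RPKM in KO mTEChi and at 0.494, 0.569 and 0.376 RPKM in WT mTEChi, without overlap (log2 difference 2.54, SE 0.48, adjusted p = 2.5e-04). Olfr1137, between Olfr1136 and Olfr1138, was lower in level at 0.328, 0.451 and 0.524 RPKM in KO mTEChi and 0.0805, 0.137 and 0.270 RPKM in WT mTEChi. Its groups did not overlap either (log2 difference 1.07, SE 0.20). It passed the threshold mainly through KO mTEChi, so its call carries no test here.

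The 4 genes lie within 52.2 kb of one another. In mm10 they stand at chr2:87692881-87693947 (Olfr1136, minus strand), chr2:87710972-87711904 (Olfr1137, minus strand), chr2:87737387-87738322 (Olfr1138, minus strand) and chr2:87746161-87747180 (Olfr1140, plus strand). Their coding regions are related but distinct: Olfr1136 was 82.7% identical to Olfr1137, 78.2% to Olfr1138 and 73.7% to Olfr1140, and no stretch of 100 bases of any of the 4 transcripts was found in another gene. The following 90 bases of each coding region (positions 319 to 408, GENCODE M21 on GRCm38, written in the coding direction) surround the conserved Asp-Arg-Tyr codons at the inner end of the third transmembrane helix. They are shown because they let the 4 paralogs be told apart, and capitals mark bases that differ from Olfr1136.
Olfr1136: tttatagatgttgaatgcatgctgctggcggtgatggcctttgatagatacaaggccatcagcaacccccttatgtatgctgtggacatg
Olfr1137: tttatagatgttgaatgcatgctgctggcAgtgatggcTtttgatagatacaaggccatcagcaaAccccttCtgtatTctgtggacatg
Olfr1138: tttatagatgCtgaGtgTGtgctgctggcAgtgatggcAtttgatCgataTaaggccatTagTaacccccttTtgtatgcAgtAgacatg
Olfr1140: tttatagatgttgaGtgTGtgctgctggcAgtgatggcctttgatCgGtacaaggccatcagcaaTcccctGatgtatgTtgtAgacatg
Within this stretch 5 bases of Olfr1137, 13 of Olfr1138 and 10 of Olfr1140 differ from Olfr1136.

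Among the neighbouring genes, Olfr1130, Olfr1132, Olfr1135, Olfr152, Olfr1143 and Olfr1145 were listed at 0 in every library. Olfr1141, which follows Olfr1140 and did not pass the threshold, was at 0.0731, 0.0133 and 0 RPKM in KO mTEChi and at 0.0429, 0.238 and 0.477 RPKM in WT mTEChi, with overlap. The whole chromosome 2 cluster (olfactory receptor genes with starts less than 1 Mb apart) holds 223 genes over 5.07 Mb and 12 members. Besides these 4, Olfr1109 and Olfr153 were called higher, and Olfr998, Olfr1002, Olfr1010 and Olfr1206 were called lower. Olfr1109 was at 0.172, 0.175 and 0.252 RPKM in KO mTEChi and at 0.0872, 0 and 0.133 RPKM in WT mTEChi. Olfr153 was at 0.116, 0.123 and 0.0381 RPKM in KO mTEChi and was listed at 0 in WT mTEChi. Both passed the threshold mainly through KO mTEChi, so their calls carry no test here. The nearest genes outside the family were Pramel6, 182 kb away, and the phosphatase gene Ptprj, 2736 kb away. Ptprj was at 4.15 RPKM in KO mTEChi and 3.59 RPKM in WT mTEChi on average (log2 difference 0.20, adjusted p = 0.36).

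**Figure D3:**
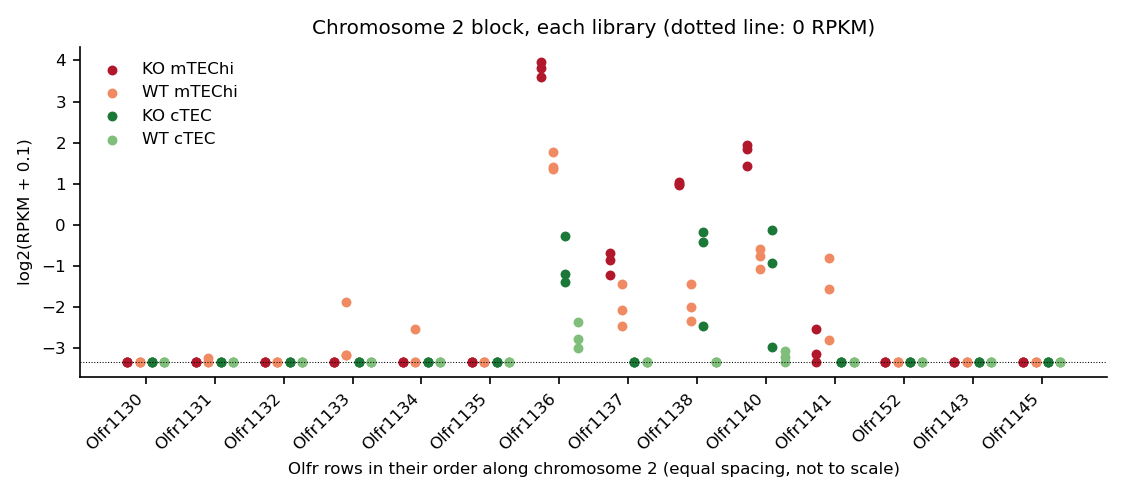
Level of 14 neighbouring olfactory receptor genes of chromosome 2 in each library of KO and WT mTEChi and cTEC, as log2(RPKM + 0.1), in chromosomal order with equal spacing; the dotted line is 0 RPKM. Olfr1136, Olfr1137, Olfr1138 and Olfr1140 stand out in KO mTEChi, and Olfr1141 lies above the line in 2 KO and 3 WT mTEChi libraries.

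The block was compared between populations. In WT libraries Olfr1136 was higher in mTEChi than in mTEClo by 4.30 on the log2 scale (SE 0.37, adjusted p = 3.0e-08). KO mTEClo libraries were at 0.260, 0.0572 and 0.0383 RPKM of Olfr1136, and WT mTEClo libraries at 0.0955, 0 and 0.0527 RPKM. Olfr1137 was listed at 0 in all mTEClo and cTEC libraries. In mTEClo no genotype difference was called in the main fit, with log2 differences of 0.46 for Olfr1136, 0.40 for Olfr1138 and 1.10 for Olfr1140 (adjusted p = 0.44, 0.61 and 0.14). Olfr1140 was at 0.122, 0.191 and 0.142 RPKM in KO mTEClo and at 0.0595, 0 and 0 RPKM in WT mTEClo, without overlap. It was called with a pseudocount of 0.01 (3.06, limma adjusted p = 0.036) and with mTEClo libraries alone (adjusted p = 0.03). The genotype effect was larger in mTEChi than in mTEClo by 1.82 for Olfr1136 and 2.53 for Olfr1138 (adjusted p = 0.0087 and 0.0034). For Olfr1137, which passed the threshold mainly through KO mTEChi, the difference was 1.07 and carries no test. With a pseudocount of 0.01 the calls of Olfr1136 and Olfr1138 were lost (adjusted p = 0.45 and 0.17). For Olfr1140 that difference was 1.44 (adjusted p = 0.094).

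The block was also compared in cTEC. Olfr1136 was at 0.730, 0.335 and 0.284 RPKM in KO cTEC and at 0.0263, 0.0469 and 0.0949 RPKM in WT cTEC, without overlap (log2 difference 1.75, adjusted p = 0.0029). Olfr1138 was at 0.784, 0.651 and 0.0817 RPKM in KO cTEC and listed at 0 in WT cTEC. Olfr1140 was at 0.813, 0.427 and 0.0272 RPKM in KO cTEC and at 0.00704, 0.0197 and 0 RPKM in WT cTEC (log2 difference 1.86, adjusted p = 0.012). Without KO cTEC replicate 1, the Olfr1140 difference was 1.25 and was not called (adjusted p = 0.062). Fitted on the cTEC libraries alone, none of the 3 was called (adjusted p = 0.1, 0.15 and 0.26). That fit called 0.0617% of all tested genes higher. In the same comparison Aire was higher in KO cTEC, as given above. In the main fit 6 of 11 medullary markers were called higher and 0 lower, against 13.3% and 6.76% of all tested genes. The part of Aire and of these markers in the result was not tested.

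The remaining members called higher were Olfr432 and Olfr433, neighbours on chromosome 1, and Olfr157 on chromosome 4. Olfr433 was at 1.83, 2.03 and 1.16 RPKM in KO mTEChi and at 0.667, 0.492 and 0.535 RPKM in WT mTEChi. The groups did not overlap (log2 difference 1.39, SE 0.47, adjusted p = 0.017), but the call was lost with a pseudocount of 0.01 (adjusted p = 0.26) and without KO mTEChi replicate 1, KO mTEChi replicate 2 or WT mTEChi replicate 2. Olfr432 was at 0.150, 0.149 and 0.241 RPKM in KO mTEChi and at 0.0436, 0.0811 and 0.0887 RPKM in WT mTEChi (log2 difference 0.70, adjusted p = 0.0048). The nearest gene outside the family, the interferon-inducible Ifi205, lies 10.2 kb from Olfr433 and averaged 25.7 RPKM in KO mTEChi and 14.8 RPKM in WT mTEChi (log2 difference 0.79, adjusted p = 0.074).

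Olfr157 was the member called higher in KO in all 3 populations. It was at 1.29, 1.23 and 1.47 RPKM in KO mTEChi and at 0.638, 0.451 and 0.505 RPKM in WT mTEChi. KO mTEClo had 0.537, 0.556 and 0.968 RPKM, against 0.245, 0.339 and 0.0780 RPKM in WT mTEClo. KO cTEC had 0.278, 0.344 and 0.175 RPKM, against 0, 0.103 and 0 RPKM in WT cTEC. In each population all KO libraries lay above all WT libraries. The log2 differences were 1.19 in mTEChi, 1.35 in mTEClo and 1.5 in cTEC (adjusted p = 0.0068, 0.015 and 0.0056). With a pseudocount of 0.01 the calls in mTEChi and mTEClo were lost (adjusted p = 0.14 and 0.13). The call in mTEClo was also lost with mTEClo libraries alone and without KO mTEClo replicate 3 or WT mTEClo replicate 3. The call in cTEC was lost with cTEC libraries alone.

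The 59 members called lower lay in 23 clusters on 13 chromosomes, and 27 members were listed at 0 in all KO mTEChi libraries. Over the 59 the median of the group means was 0.00327 RPKM in KO mTEChi and 0.318 RPKM in WT mTEChi. Olfr78 encodes a receptor for short-chain fatty acids that is known from the carotid body and kidney. It was listed at 0 in all KO mTEChi libraries and stood at 1.53, 1.29 and 1.45 RPKM in WT mTEChi. The groups were fully apart, but the gene model holds exons of Olfr560, whose reads could not be separated. Olfr12, on chromosome 1, was listed at 0 in KO mTEChi and was at 0.341, 0.716 and 0.260 RPKM in WT mTEChi.

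Other members were found in WT mTEChi and at 0.1 RPKM in no other library. Olfr523 was listed at 0 in KO mTEChi and was at 0.863, 1.44 and 1.02 RPKM in WT mTEChi. Olfr915 was listed at 0 in KO mTEChi and was at 1.07, 0.831 and 0.890 RPKM in WT mTEChi. Olfr464 was at 0.0105, 0 and 0 RPKM in KO mTEChi and at 0.772, 1.33 and 0.714 RPKM in WT mTEChi. In each of the 3 genes every WT library lay above every KO library. Olfr329-ps, Olfr1349 and Olfr43 had the same pattern, with WT mTEChi libraries at 0.827 to 1.07, 0.253 to 0.674 and 0.212 to 0.297 RPKM.

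A lower level in KO mTEChi was not always an absence. Olfr1372-ps1, a transcribed pseudogene of chromosome 11, was at 0.362, 0.220 and 0.207 RPKM in KO mTEChi and at 2.58, 2.39 and 2.42 RPKM in WT mTEChi. It fell by 2.84 on the log2 scale (SE 0.26, adjusted p = 1.1e-07), while it was higher in KO elsewhere. KO mTEClo had 2.79, 2.80 and 3.34 RPKM, against 1.45, 1.46 and 1.40 RPKM in WT mTEClo (log2 difference 0.99, adjusted p = 0.017). KO cTEC had 2.28, 1.37 and 2.22 RPKM, against 0.310, 0.710 and 0.706 RPKM in WT cTEC (log2 difference 1.64, adjusted p = 3.1e-04). This cTEC difference was not called with cTEC libraries alone. The libraries did not overlap in any population, and the effect in mTEChi differed from that in mTEClo by −3.84 (adjusted p = 5.1e-07).

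Olfr284 and Olfr1420, the highest members of the chromosome 15 and 19 clusters, were not called. Olfr284 was at 0.735, 0.409 and 0.365 RPKM in KO mTEChi and at 0.867, 0.819 and 0.499 RPKM in WT mTEChi, with overlap (log2 difference −0.48, adjusted p = 0.15). Olfr1420 was at 0.599, 0.461 and 0.452 RPKM in KO mTEChi and at 0.465, 0.172 and 0.247 RPKM in WT mTEChi, also with overlap (log2 difference 0.67, adjusted p = 0.2).

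Olfr920, on chromosome 9, was at 0.788, 0.805 and 1.28 RPKM in KO mTEChi and at 2.11, 1.84 and 1.75 RPKM in WT mTEChi. The groups did not overlap (log2 difference −0.95, SE 0.32, adjusted p = 0.016), yet with quantile normalization the difference was 0.23, and centring or leaving out KO mTEChi replicate 1, KO mTEChi replicate 2 or WT mTEChi replicate 1 ended the call. It was the highest olfactory receptor gene of WT cTEC, with 14.1 to 20% of the summed level there. Olfr56 was called lower as well (log2 difference −0.68, adjusted p = 0.032), but its model of 84.7 kb contains exons of the interferon-inducible genes Ifi47 and Tgtp2.

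By chromosomal cluster, all 7 members of the large chromosome 7 cluster, led by Olfr78, were called lower in KO mTEChi, as were all 6 of a chromosome 11 cluster led by Olfr329-ps and 11 of 14 in the chromosome 9 cluster. In the chromosome 17 cluster 2 of 10 were called lower and none higher. Read against the 52.8% of all tested genes called lower, and given the rule's use of WT mTEChi, these counts are descriptions.

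**Figure D4:**
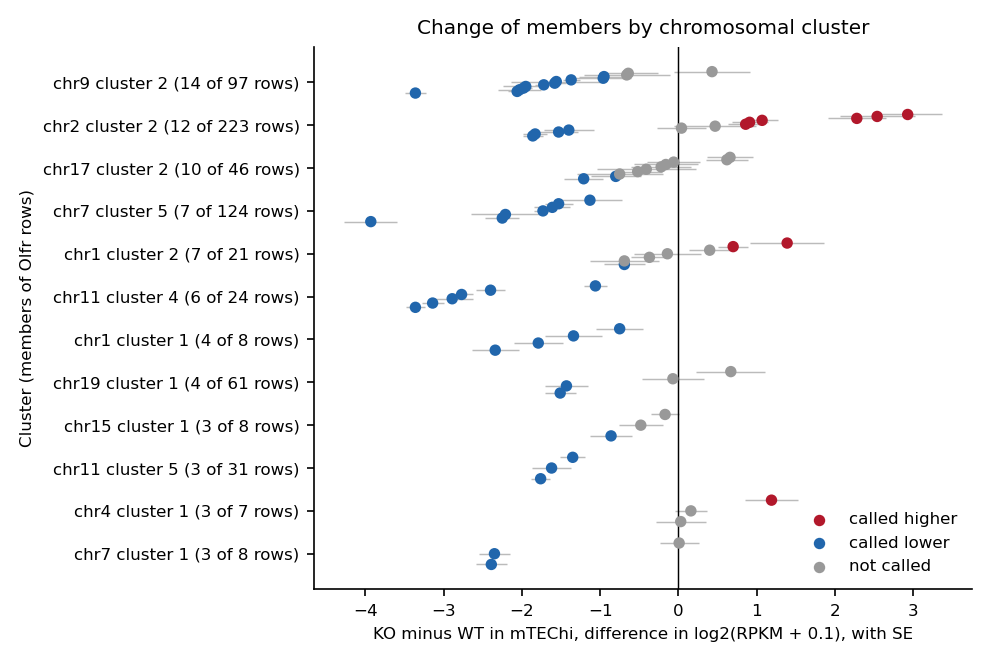
Difference KO minus WT in mTEChi for each member (points, with SE; log2 of RPKM + 0.1) in the 12 clusters that hold 3 or more members; labels give the members of the olfactory receptor genes in each cluster. All 6 higher calls of the chromosome 2 cluster and the 2 of chromosome 1 lie right of 0, and the chromosome 7, 9 and 11 clusters lie mostly left of it.

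The chromosome 17 cluster holds the second-highest olfactory receptor gene of KO mTEChi. Olfr99 was at 4.92, 4.4 and 5.39 RPKM in KO mTEChi and at 4.21, 2.86 and 2.55 RPKM in WT mTEChi. All KO libraries were above all WT libraries, but the log2 difference of 0.62 (SE 0.27) was not called (adjusted p = 0.056); it was called with a pseudocount of 1, with centring, with quantile normalization, with mTEChi libraries alone and without WT mTEChi replicate 1. Olfr98, 92.9% identical to it, was at 1.64, 1.44 and 2 RPKM in KO mTEChi and at 0.868, 1.25 and 0.995 RPKM in WT mTEChi, again without overlap (log2 difference 0.66, adjusted p = 0.058). The Olfr98 model holds exons of Gm20429, and 36.2% of the searched stretches of its transcript occur in another gene. Its nearest relative, Olfr97, was 94.8% identical, so the reads of Olfr98 could be shared with other genes. Olfr98 and Olfr99 were both found in all 6 groups. Between them, 6.57 kb from Olfr98 and 5.02 kb from Olfr99, lies H2-M3, which encodes a class Ib major histocompatibility molecule that presents formylated peptides. H2-M3 averaged 45.2 ± 1.17 RPKM in KO mTEChi and 29.2 ± 0.738 RPKM in WT mTEChi (SD, n = 3; log2 difference 0.63, SE 0.07, adjusted p = 9.7e-07).

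The sequence at the start of the Olfr98 and Olfr99 models is printed because these neighbours flank 1 gene, were detected in all groups and share a motif. RefSeq windows from 250 bases before to 50 bases after the gene start (GRCm38.p6) were matched for 77 of the 97 members, giving 78 windows. Olfr98 is at chr17:37263613-37263912 and Olfr99 at chr17:37280369-37280668, both on the minus strand, and capitals mark a motif made of TCCC, any 2 bases and GGGA.
Olfr98: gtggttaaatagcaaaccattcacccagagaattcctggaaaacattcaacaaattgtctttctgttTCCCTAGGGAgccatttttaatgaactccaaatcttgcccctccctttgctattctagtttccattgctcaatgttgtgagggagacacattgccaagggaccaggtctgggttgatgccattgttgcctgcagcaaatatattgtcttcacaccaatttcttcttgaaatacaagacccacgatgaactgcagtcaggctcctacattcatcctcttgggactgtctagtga
Olfr99: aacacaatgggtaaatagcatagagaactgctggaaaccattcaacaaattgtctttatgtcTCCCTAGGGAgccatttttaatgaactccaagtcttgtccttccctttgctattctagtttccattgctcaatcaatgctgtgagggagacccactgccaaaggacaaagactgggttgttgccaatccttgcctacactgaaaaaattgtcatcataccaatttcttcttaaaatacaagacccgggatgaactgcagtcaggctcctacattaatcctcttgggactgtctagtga
This motif, the core bound by early B-cell factor (Ebf) proteins, was found on either strand in 3 of 78 member windows (3.85%), those of Olfr96, Olfr98 and Olfr99. The coding regions of Olfr98 and Olfr99 are 92.9% identical, and their windows are alike around the motif. Their matches are therefore not independent. The motif was in 2 of 870 windows of other olfactory receptor genes (0.23%) and in 0.904% of 32851 windows of all genes. TAATTA, a homeodomain core, was in 16.7% of member windows, 18.7% of other olfactory receptor windows and 5.29% of all. TATAAA was in 33.3%, 41.7% and 13.6%, in the same order. GGGA followed by any base and TTTCC, an NF-kB core, was in 0%, 0.115% and 0.411%. A match is a description and not a bound site. For Olfr99 the GENCODE model starts 3042 bases upstream of the RefSeq start and for Olfr98 87 bases upstream, so a window may not hold the first transcribed base.

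KO and WT were also compared in mTEClo and in cTEC. In mTEClo 8 members were called higher in KO than in WT, against 7.93% of all tested genes, and 0 lower, against 8.04% (0 lower at an unadjusted p under 0.05 by limma, and 1 lower with a pseudocount of 0.01). In cTEC 11 members were called higher, against 13.3%, and 0 lower, against 6.76% (2 lower at an unadjusted p under 0.05, 1 lower with a pseudocount of 0.01 and 3 with quantile normalization). Fitted on the cTEC libraries alone, 0 members were called higher, against 0.0617% of all tested genes. Without WT mTEClo replicate 3, the deepest library, 5 members were called higher in mTEClo, against 3.85% of all tested genes.

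Olfr461, on chromosome 6, was the most abundant olfactory receptor RNA outside KO mTEChi and WT cTEC. It was at 21.9, 21.6 and 26.0 RPKM in KO mTEClo and at 13.1, 18.3 and 7.91 RPKM in WT mTEClo. All KO libraries were higher, but the log2 difference of 0.89 was not called (SE 0.42, adjusted p = 0.17). KO cTEC had 15.9, 6.41 and 7.39 RPKM, against 1.21, 2.39 and 0.642 RPKM in WT cTEC, without overlap (log2 difference 2.78, adjusted p = 2.4e-04). With cTEC libraries alone Olfr461 was not called (limma adjusted p = 0.1). KO mTEChi had 0.954, 1.76 and 1.98 RPKM, against 4.15, 5.02 and 3.05 RPKM in WT mTEChi, without overlap and in the opposite direction (log2 difference −1.36, SE 0.42, adjusted p = 0.011). That call was lost with quantile normalization (−0.77, adjusted p = 0.13) and without KO mTEChi replicate 1. In order of means, KO mTEClo stood first and WT mTEClo second, then KO cTEC, WT mTEChi, KO mTEChi and WT cTEC. WT mTEClo libraries overlapped those of KO cTEC, and KO mTEChi libraries overlapped those of WT cTEC. Its neighbours include bitter taste receptor genes, of which Tas2r108 averaged 25.2 ± 2.95 RPKM in KO mTEClo and 13.7 ± 5.77 RPKM in WT mTEClo. Olfr460, the other member there, was 77.5% identical and far lower, with means of 0.402 RPKM in KO mTEClo and 0.295 RPKM in WT mTEClo.

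Olfr148 and Olfr960, 8.62 kb apart on chromosome 9, rose most in KO mTEClo. Olfr960 was at 2.34, 2.06 and 3.61 RPKM in KO mTEClo and at 0.334, 0.244 and 0.0186 RPKM in WT mTEClo. The groups were far apart (log2 difference 3.37, SE 0.49, adjusted p = 4.6e-04). Olfr148 was at 1.84, 1.96 and 2.51 RPKM in KO mTEClo and at 0.190, 0.284 and 0.0574 RPKM in WT mTEClo, also without overlap (log2 difference 3.07, SE 0.36, adjusted p = 9.5e-05). KO cTEC had 2.45, 1.06 and 0.495 RPKM of Olfr960, against 0.05, 0.00754 and 0 RPKM in WT cTEC (log2 difference 3.36, adjusted p = 1.8e-04). Olfr148 was at 0.517, 0.680 and 1.05 RPKM in KO cTEC and at 0.0149, 0 and 0 RPKM in WT cTEC (log2 difference 2.97, adjusted p = 4.0e-05). Both differed in the same direction in cTEC as in mTEClo. With cTEC libraries alone neither was called in cTEC (limma adjusted p = 0.088 for Olfr960 and 0.058 for Olfr148).

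In mTEChi the pair stayed low. Olfr960 was at 0.215, 0.117 and 0.189 RPKM in KO mTEChi and at 0.0927, 0.0510 and 0.176 RPKM in WT mTEChi, with overlap (log2 difference 0.43, adjusted p = 0.46). Olfr148 was at 0.0123, 0 and 0.0596 RPKM in KO mTEChi and at 0.104, 0.312 and 0.0577 RPKM in WT mTEChi, with overlap (log2 difference −0.96, adjusted p = 0.03). This call was lost with a pseudocount of 1, with centring and without KO mTEChi replicate 1, KO mTEChi replicate 2 or WT mTEChi replicate 2, and the difference was 0.20 with quantile normalization. The next gene, AW551984, lies 9.45 kb from Olfr148. It was at 36.6, 47.2 and 49.6 RPKM in KO mTEClo and at 11.0, 12.8 and 7.88 RPKM in WT mTEClo, without overlap (log2 difference 2.08, adjusted p = 1.5e-04). Olfr961, outside the members, is 94.6% identical to Olfr960, and 5.5% of the 100-base stretches of Olfr960 occur in another gene.

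Olfr424 and Olfr420 of the chromosome 1 cluster rose in KO mTEClo too. Olfr424 was at 2.29, 2.81 and 2.69 RPKM in KO mTEClo and at 0.659, 1.32 and 0.288 RPKM in WT mTEClo, without overlap (log2 difference 1.84, SE 0.44, adjusted p = 0.011; not called without WT mTEClo replicate 3, with a pseudocount of 0.01 or with mTEClo libraries alone). Olfr420 was at 0.226, 0.335 and 0.288 RPKM in KO mTEClo and at 0.0586, 0.133 and 0.0256 RPKM in WT mTEClo, without overlap (log2 difference 1.19). Olfr420 passed the threshold mainly through KO mTEClo, so its call carries no test here. In cTEC Olfr424 was at 1.71, 0.364 and 0.708 RPKM in KO and at 0.0578, 0 and 0.0310 RPKM in WT libraries (log2 difference 2.79, adjusted p = 3.5e-04). With cTEC libraries alone it was not called (limma adjusted p = 0.099). The same cluster thus held Olfr432 and Olfr433, called higher in KO mTEChi, and Olfr420 and Olfr424, called higher in KO mTEClo.

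Markers of tuft cells, epithelial cells that carry taste-signalling proteins, were set beside these results. All 9 tuft markers were in the tables and none was at 0 throughout. Their summed level was 1090 to 1159 RPKM in KO mTEClo and 356 to 781 RPKM in WT mTEClo, 260 to 609 RPKM in KO cTEC and 38.1 to 110 RPKM in WT cTEC, and 66.2 to 96.9 RPKM in KO mTEChi and 102 to 200 RPKM in WT mTEChi. In cTEC 9 of 9 were called higher in KO, against 13.3% of all tested genes, and in mTEClo 2 of 9 were, against 7.93%. In mTEChi 2 of 9 were called lower, against 52.8%. With cTEC libraries alone 0.0617% of all tested genes were called higher. Dendritic cell and macrophage markers, 8 of 8 in the tables, were highest in mTEChi, with sums of 358 to 390 RPKM in KO and 342 to 372 RPKM in WT. They summed to 69.9 to 139 RPKM in KO mTEClo and 26.9 to 34.5 RPKM in WT mTEClo. In cTEC the sums were 111 to 153 RPKM in KO and 25.6 to 65 RPKM in WT. Thymocyte markers, 9 of 9 in the tables, summed to 12.5 to 25.1 RPKM in KO mTEChi and 34.9 to 59.2 RPKM in WT mTEChi. Their sums were 11 to 26.8 RPKM in KO mTEClo and 14.7 to 37.4 RPKM in WT mTEClo. In cTEC they were 24.9 to 34 RPKM in KO and 37.2 to 80.4 RPKM in WT. The part of these cells in the olfactory receptor levels was not tested.

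**Figure D5:**
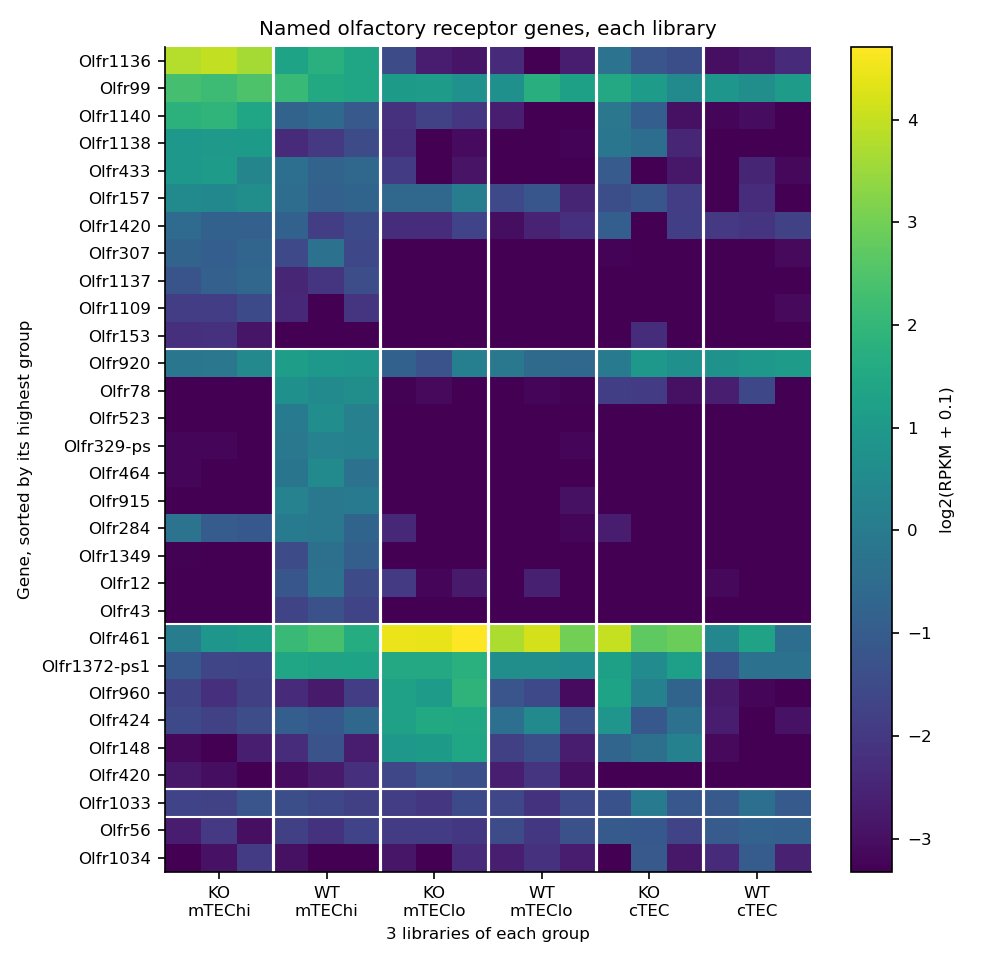
Level of 30 named members in each of the 18 libraries, as log2(RPKM + 0.1); rows are genes sorted by the group with the highest mean, columns are libraries by group. Olfr461 is brightest in mTEClo, Olfr1136 in KO mTEChi, and a block of genes from Olfr78 to Olfr43 is seen nearly only in WT mTEChi.

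The WT populations were compared next. Between WT mTEChi and WT mTEClo 74 members were called higher, against 41.6% of all tested genes, and 2 lower, Olfr212 and Olfr461, against 31.1%. Outside the 34 members that the rule set apart the counts were 40 higher, 2 lower and 21 not called of 63. With quantile normalization 20 and 13 of 97 were called higher and lower, against 29.6% and 39.3% of all tested genes. Between WT mTEChi and WT cTEC 80 were called higher, against 46.6%, and 3 lower, Olfr56, Olfr1033 and Olfr1034, against 31.8%. Outside those 34 members the counts were 46 higher, 3 lower and 14 not called of 63. With quantile normalization 19 and 15 of 97 were called higher and lower, against 32.6% and 42.8% of all tested genes. Olfr1033 was at 0.277, 0.236 and 0.189 RPKM in WT mTEChi and at 0.377, 0.655 and 0.388 RPKM in WT cTEC, without overlap (log2 difference −0.75, adjusted p = 0.035). Its call was lost with a pseudocount of 0.01, with centring and without WT cTEC replicate 2, WT mTEChi replicate 2 or WT mTEChi replicate 3. Olfr1034 was at 0.0289, 0 and 0 RPKM in WT mTEChi and at 0.0978, 0.407 and 0.0653 RPKM in WT cTEC, without overlap (log2 difference −1.23, adjusted p = 0.041). Its call was lost with a pseudocount of 1, without the filter, with centring and without WT cTEC replicate 2 or any WT mTEChi library.

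The medullary populations were also compared in KO libraries. Between KO mTEChi and KO mTEClo 27 members were called higher, against 23.4% of all tested genes, and 14 lower, against 43.7%. Outside the 34 members that the rule set apart, 26 of 63 were called higher, 14 lower and 23 not. With libraries centred, 51 were called higher, against 38.4% of all tested genes, and 9 lower, against 28%. Olfr1136 led the higher ones with a log2 difference of 6.13 (SE 0.37, adjusted p = 4.7e-10). Olfr307 was among them: it was at 0.482, 0.425 and 0.512 RPKM in KO mTEChi and listed at 0 in every KO and WT mTEClo library. In WT mTEChi it stood at 0.244, 0.703 and 0.235 RPKM, which overlapped KO mTEChi (log2 difference 0.34, adjusted p = 0.24). Olfr148 and Olfr461 led the lower ones, with differences of −4.17 and −3.86 (adjusted p = 4.1e-08 and 6.1e-07).

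The genotype effect in mTEChi was tested against that in mTEClo. It was more positive for 6 members, against 6.01% of all tested genes, and more negative for 56, against 40.9%. Outside the 34 members that the rule set apart, 6 were called more positive, 22 more negative and 35 neither. The more positive ones were Olfr1109, Olfr1136, Olfr1137, Olfr1138, Olfr153 and Olfr432. Of these, Olfr1109, Olfr1137 and Olfr153 passed the threshold mainly through KO mTEChi, so that their calls carry no test.

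Genes that work with olfactory receptors in the nose were examined as a list of 16 transduction genes, all tested. Between KO and WT mTEChi 1 was called higher and 10 lower, against 9.57% and 52.8% of all tested genes, with a median log2 difference of −0.65. Slc24a4, a sodium, potassium and calcium exchanger, averaged 138 ± 11.6 RPKM in KO mTEChi and 56.0 ± 3.55 RPKM in WT mTEChi (SD, n = 3; log2 difference 1.29, adjusted p = 9.3e-04). Stoml3, a stomatin of sensory neurons, averaged 0.0473 ± 0.0264 RPKM in KO mTEChi and 1.60 ± 0.353 RPKM in WT mTEChi (log2 difference −3.52, adjusted p = 1.3e-05). Adcy3, the adenylyl cyclase of olfactory cilia, averaged 1.29 ± 0.197 RPKM in KO mTEChi and 4.14 ± 0.495 RPKM in WT mTEChi (log2 difference −1.61, adjusted p = 1.0e-06). Omp, the olfactory marker protein, was not called between the genotypes, with 18.4 ± 1.47 RPKM in KO mTEChi and 21.3 ± 1.15 RPKM in WT mTEChi (log2 difference −0.21, adjusted p = 0.44). WT mTEChi exceeded WT mTEClo, at 1.79 ± 0.44 RPKM, in Omp by 3.52 on the log2 scale (adjusted p = 1.4e-09). Gng13, a G protein subunit shared with taste and tuft cells, had the highest level, with 324 ± 17.7 RPKM in KO mTEClo and 136 ± 55.1 RPKM in WT mTEClo.

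Of 23 tested genes for receptor transport and receptor choice, 1 was called higher and 14 lower in KO mTEChi, against 9.57% and 52.8% of all tested genes, with a median log2 difference of −0.51. Rtp1, a chaperone that brings receptors to the cell surface, averaged 0.0057 ± 0.00496 RPKM in KO mTEChi and 0.529 ± 0.161 RPKM in WT mTEChi (SD, n = 3). It reached 0.1 RPKM in WT mTEChi libraries alone, so no test is given. Emx2 and Lhx2, homeodomain factors of olfactory neurons, averaged 0.016 and 0.0653 RPKM in KO mTEChi and 0.654 and 0.84 RPKM in WT mTEChi (log2 differences −2.69 and −2.51, adjusted p = 1.2e-06 and 6.2e-07). Atf5, a stress-response transcription factor of olfactory neurons, averaged 73.3 ± 5.64 RPKM in KO mTEChi and 58.4 ± 5.45 RPKM in WT mTEChi (log2 difference 0.33, adjusted p = 0.043).

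Reads could be shared between some members and other genes. Of the 97 members, 19 had at least 5% of the 100-base stretches of their transcripts in another gene, 11 had exons of another gene inside their model, and 73 had neither. Of these 73, 7 were called higher and 46 lower in KO mTEChi, against 9.57% and 52.8% of all tested genes. The 73 include members, such as Olfr523, that passed the threshold through WT mTEChi alone, so these counts are a description. The sources used here do not state whether reads were counted by strand, so a member and a gene on the other strand cannot be told apart where they overlap. By GENCODE type 91 members were protein coding and 6 pseudogenes.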

How the data were processed

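Expression was measured in 18 libraries, 3 for each of 6 groups, taken from the labels. The authors deposited 1 table per library with the chromosome, start, end and symbol of 23063 genes. The files have no header; that the levels are RPKM, scaled by the authors to gene model length and library size, is given by the names of the deposited files. The deposited tables also give a signal per gene, which is a sum of aligned bases, and this was used here for depth. Per the submitters' processing notes, CASAVA 1.8.2 and the build mm10 are named, with no role given. Annotation, aligner settings and the treatment of reads that match several genes: not given in the sources used here.

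RPKM were used as deposited. The 19451 genes that reached 0.1 RPKM in 3 or more libraries were modelled as log2(RPKM + 0.1). The model, fitted with limma 3.58.1 (R 4.3.3) and eBayes moderation along a trend, had 6 group means over all 18 libraries. Benjamini-Hochberg adjusted p-values are over all tested genes, and genes with an adjusted p under 0.05 were called. There were 7 comparisons. Log2 differences of genes at or near 0 RPKM depend on the added 0.1. Numbers of genes per library were compared by exact permutation tests. The fit was tested on simulated data.

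Clusters were formed from olfactory receptor genes of 1 chromosome whose neighbouring starts lay within 1 Mb. Coding regions and shared stretches came from GENCODE M21 and BLAST+ 2.17.0. Alternatives were 2 other pseudocounts, no filter, quantile normalization, median centring, only the libraries compared, no trend, the replicate number as a block, and leaving out each replicate. The genes named are Olfr1136, Olfr1138, Olfr1140 and Olfr960, up to 5 members with the largest rise and fall per comparison among those called without overlap, the 10 highest group means, the highest member of each cluster with 3 or more, and, from the other lists, up to 5 called genes with the largest change and the highest gene. Neighbouring genes and other members were named after their values were seen. The members and all lists were chosen with earlier results of these data known.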

Additional observations from a re-analysis of the deposited data

Results flagged for a closer look

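The effect of the genotype in mTEChi was set against that in mTEClo for the named members that reached 0.1 RPKM in a library outside WT mTEChi. The difference itself was tested in limma over all 19451 genes, on the scale of log2(RPKM + 0.1), as the effect in mTEChi minus that in mTEClo.

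It was positive, with a call, for Olfr1138 (2.53) and Olfr1136 (1.82) of the chromosome 2 block. With a pseudocount of 0.01 the calls of Olfr1136 and Olfr1138 were lost (adjusted p = 0.45 and 0.17). For Olfr1137 of the block it was 1.07. For Olfr153, in the same cluster of that chromosome, it was 0.91 and for Olfr1109 0.86. Olfr1137, Olfr153 and Olfr1109 had passed the threshold mainly through KO mTEChi, so these values are a description with no test.

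It was negative, with a call, for Olfr148 (−4.03), Olfr1372-ps1 (−3.84), Olfr960 (−2.94), Olfr424 (−2.53) and Olfr461 (−2.25). Of these, Olfr148, Olfr960, Olfr424 and Olfr1372-ps1 were called higher in KO mTEClo. For Olfr78 it was −3.95 and for Olfr12 −2.81. Both were listed at 0 in all KO mTEChi libraries. They had passed the threshold mainly through WT mTEChi, so their values are a description with no test. Olfr420 differed by −1.56. It had passed the threshold mainly through KO mTEClo, so its value is a description with no test.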

How the results depend on the processing

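Of 66 named values, 42 kept their direction and their side of the threshold under all alternatives run. With quantile normalization 29 members were called higher and 17 lower for KO minus WT in mTEChi, against 31.2% and 24.7% of all tested genes. For KO minus WT in cTEC 3 were called lower, against 11.1%. For WT mTEChi minus WT mTEClo 20 were called higher and 13 lower, against 29.6% and 39.3%. For WT mTEChi minus WT cTEC 19 were called higher and 15 lower, against 32.6% and 42.8%. For the difference in genotype effect 23 were called higher and 19 lower, against 23.4% and 18.3%. Quantile normalization also turned the KO minus WT difference in mTEChi of Olfr148 to 0.20, of Olfr424 to 1.13 and of Olfr920 to 0.23. The cause was not tested.

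A pseudocount of 0.01 gave 1 member called lower for KO minus WT in mTEClo, 1 in cTEC, and 2 higher for the difference in genotype effect. Centring gave 51 higher and 9 lower for KO mTEChi minus KO mTEClo, against 38.4% and 28% of all tested genes. It gave 1 lower for WT mTEChi minus WT cTEC, against 25.9%. With cTEC libraries alone 0 members were called higher in KO, against 0.0617% of all tested genes. For WT mTEChi minus WT mTEClo, 1 member was called lower with a pseudocount of 1, without the filter, with centring and without the trend. Of all tested genes 21.9 to 31.3% were called lower under these settings.

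Leaving out 1 replicate at a time, the members called higher and lower were 8 to 10 and 50 to 56 for KO minus WT in mTEChi, 5 to 10 and 0 in mTEClo, 10 to 14 and 0 in cTEC, 69 to 75 and 1 to 2 for WT mTEChi minus WT mTEClo, 23 to 26 and 12 to 14 for KO mTEChi minus KO mTEClo, 74 to 79 and 1 to 3 for WT mTEChi minus WT cTEC, and 3 to 8 and 54 to 58 for the difference in genotype effect.

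Replicate numbers did not pair the libraries: deviations of same-numbered libraries correlated between −0.30 and 0.14. With the replicate number as a block, 9 members were called higher and 58 lower for KO minus WT in mTEChi, against 9.53% and 52.6% of all tested genes. For WT mTEChi minus WT mTEClo 1 was called lower, against 31.1%.

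Depth ran from 4.54 to 18.1 Gb and 15 of 97 members had a group mean of 1 RPKM or more, so a value of 0 means not detected at this depth. No counting interval can be given for RPKM.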

Other observations

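Other chemosensory receptor families were found at the same threshold in different shares. Trace amine-associated receptors (Taar) passed in 5 of 15 genes, vomeronasal receptors in 5 of 184 (Vmn1r) and 7 of 121 (Vmn2r), and bitter taste receptors (Tas2r) in 33 of 35. Several of them, Taar5, Taar9 and Vmn1r207-ps included, were at or near 0 in every group but WT mTEChi and passed through it, so the values are a description with no test. Taar9 was listed at 0 in KO mTEChi and averaged 0.93 RPKM in WT mTEChi, and Taar5 was listed at 0 in KO mTEChi and averaged 0.795 RPKM in WT mTEChi.

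Of 33 tested Tas2r genes, 8 were called higher in KO than in WT mTEClo, against 7.93% of all tested genes, 13 in KO than in WT cTEC, against 13.3%, and 2 lower in KO than in WT mTEChi, against 52.8%. Between WT mTEChi and WT mTEClo 29 were called lower, against 31.1%. Vmn2r19 averaged 1.07 RPKM in KO mTEClo and 0.141 RPKM in WT mTEClo. These genes were picked after their values were seen.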
